A study of Mus musculus with 8 samples.

Results

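The genes described here are those that copy DNA in S phase, together with the E2F targets that prepare cells for it: the MCM2-7 helicase, the factors that load and activate it, the polymerases and primase, the sliding clamp and its loader, the single-strand and flap proteins, the enzymes of deoxynucleotide supply, cyclins E1 and E2, E2f1 and the chromatin assembly factor subunits. The set is a list of 37 gene symbols. Each gene is represented by the brightest of the probe sets that name it alone, and 36 of the 37 had such a probe set among the 18193 genes measured; Chaf1a was not analysed here. Expression was measured on Affymetrix arrays in mouse embryonic fibroblasts (MEFs), primary mesenchymal cultures grown from midgestation embryos. The 4 WT samples were wild type, and the 4 Cebpg-/- samples lacked both copies of the gene for C/EBPγ, a leucine zipper transcription factor. All 8 came from C57BL/6 embryos collected at E13.5, were kept in serum-containing medium and were used at passage 3, 48 h after plating at equal density. The labels call the 4 samples of each genotype biological replicates without naming separate embryos, so the p-values below measure only the spread between these samples.

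Before S phase, the origin recognition complex marks origins and, with CDC6 and CDT1, loads the ring-shaped MCM2-7 helicase on DNA. At the G1/S boundary the loaded helicase is turned on by CDC45, MCM10 and the GINS complex, and polymerases, clamp and ligase follow. Cyclin E kinases relieve RB repression of E2F transcription factors in late G1, and most genes of the set are textbook E2F targets whose messages are highest around S phase; their combined level in a culture is therefore widely read as a measure of proliferation.

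The promoters of the set were read first, because they show what its members share in sequence. RefSeq windows on the GRCm38.p6 build, running from 250 bases before to 50 bases after each start site, were matched by symbol to 31 of the 37 genes, which have 35 windows. The windows were searched on both strands for the E2F motif TTCCCGC and its common variants, spelled TTCGCGC in one form, TTGCCGC in another and TTGGCGC in the last; overlapping matches were all counted. At least 1 was found in 21 of the 35 windows, or 60.0%, against 9.57% of all 32851 windows. Other replication genes stood at 57.1%, other E2F targets at 61.3%, mitosis genes at 11.1%, and leukocyte markers at 0 of 16. The 5 stretches printed here were chosen because they show the form the motif takes in helicase, primase, nucleotide and single-strand-binding genes, and, for Pola2, the upstream sequence of a member that rose but whose window held no match. Matches on either strand are in capitals and all other bases in lower case; each stretch reads 5′ to 3′ on the gene's own strand and lies outside every RefSeq gene body.
Mcm6, chr1:128359706-128359825, minus strand: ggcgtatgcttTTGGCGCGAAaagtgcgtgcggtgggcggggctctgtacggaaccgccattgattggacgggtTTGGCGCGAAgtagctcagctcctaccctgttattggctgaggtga
Prim1, chr10:128015095-128015214, plus strand: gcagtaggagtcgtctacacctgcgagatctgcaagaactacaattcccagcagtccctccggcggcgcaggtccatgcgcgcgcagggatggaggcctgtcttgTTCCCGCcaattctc
Rrm1, chr7:102441575-102441694, plus strand: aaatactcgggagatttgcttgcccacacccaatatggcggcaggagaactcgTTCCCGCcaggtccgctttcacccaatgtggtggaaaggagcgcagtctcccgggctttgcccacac
Rpa2, chr4:132768240-132768359, plus strand: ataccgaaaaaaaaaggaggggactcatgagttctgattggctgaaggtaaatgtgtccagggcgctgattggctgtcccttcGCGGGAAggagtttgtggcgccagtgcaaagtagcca
Pola2, chr19:5964239-5964358, minus strand: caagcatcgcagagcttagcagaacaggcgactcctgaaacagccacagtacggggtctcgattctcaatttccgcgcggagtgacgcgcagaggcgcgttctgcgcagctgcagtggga
In Mcm6 each run of 10 capitals is a pair of overlapping matches, TTGGCGC on the printed strand and TTCGCGC on the other, and its whole window held 5 matches, the most of any member. Prim1 and Rrm1 carry the same core, TTCCCGC, while Rpa2 carries it on the opposite strand. The Mcm6, Prim1, Rrm1 and Rpa2 stretches end 1 base before the start site, and that of Pola2 covers positions -152 to -33.

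Most E2F matches of the set lay near the start site. Of 39 matches, which join into 34 separate stretches where they overlap, 24 began within 50 bases of the start and 23 lay before it. With the window cut to the 100 bases before the start, 8 of 35 windows (22.9%) held a match, against 3.73% of all windows. The CCAAT box, bound by NF-Y, was found in 54.3% of the set's windows against 37.4% of all and 88.9% of those of mitosis genes, and 3 E2F matches overlapped one. The cAMP response element TGACGTCA was found in 1 window (Mcm5; 2.86% against 1.79% of all) and the composite C/EBP-ATF site TGATGNAA in 1 (Fen1; 2.86% against 3.97% of all). The windows of the set were also richer in G and C, with a median of 61.3% against 52.7%, and held a median of 24 CpG dinucleotides against 7, and no allowance for this was made in the shares. A match is a description of the letters only, and a window without one says nothing about binding by the factor. Among the 12 measured members whose windows held no E2F match were both genes that passed the expression test, Pola2 and Cdc45.

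**Figure D1:**
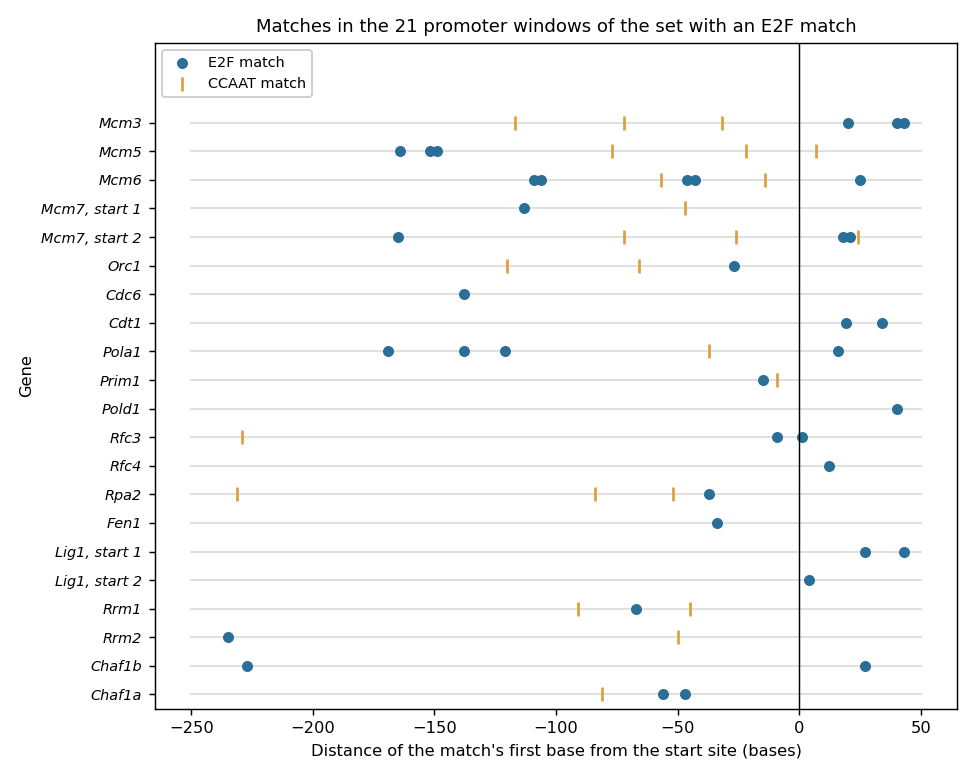
Position of each E2F match (blue dots) and CCAAT match (orange ticks) in the 21 promoter windows of the set that hold an E2F match, as the distance in bases of the match's first base from the start site; genes are ordered by role. The matches of 1 window are often grouped, as in Mcm6, and 24 of 39 begin within 50 bases of the start.

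The labelled cell type was checked against its markers. Fibroblast markers had a mean of 8.89 ± 0.14 log2 units in WT and 8.59 ± 0.17 in Cebpg-/- (SD, n = 4 each). Endothelial, epithelial, muscle, neural and erythroid lists had group means between 1.90 and 3.88. Single markers of these lists stood higher, such as neural Tubb3, at 6.85 in WT and 5.72 in Cebpg-/- (-1.13, limma adjusted p 0.00351). By list, 1 endothelial marker was called higher and 1 epithelial, 1 muscle and 1 neural marker lower, where 12.6% of all genes were called. Of 12 fibroblast markers 5 were called lower in Cebpg-/- and 0 higher: Col1a1 (-1.05), Col3a1 (-0.97), Fap (-0.88), Pdgfrb (-0.64) and Col1a2 (-0.44). What part this had in the results for the set was not tested. Leukocyte markers were also present and differed between cultures: their mean ran from 3.73 to 5.63 in WT and from 5.05 to 7.60 in Cebpg-/-, with all 18 higher on average in Cebpg-/- and 1 of 18, Cd14, past the test (1.37, adjusted p 0.0316); no marker list had a mean at 0. Of the 3 probe sets of Cebpg itself, the brightest read 6.78 in WT and 6.60 in Cebpg-/- (adjusted p over all probe sets 0.275), a second 6.32 and 5.53 (0.000593) and the dimmest 2.80 and 3.05 (0.0942); the position of the deletion relative to these probe sets was not given. In bulk samples such as these, fewer cells expressing a gene and less of its RNA per cell cannot be told apart.

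Values are the deposited log2 signals, a change is the Cebpg-/- mean minus the WT mean, and a gene is called where limma's Benjamini-Hochberg adjusted p over all 18193 genes is under 0.05. Most of the replication set differed little between the genotypes. 1 member was called higher (Pola2), 1 lower (Cdc45), and 34 were not called. Over all genes 12.6% were called, 8.62% higher and 3.99% lower, so 2 of 36 is no larger a share than the background. At an unadjusted p under 0.05, 7 members passed, 6 of them higher and 1 lower, against 28.4% of all genes. The 4 values of one genotype lay wholly outside those of the other for 4 members (Pola2, Orc1 and Rpa1 above, Cdc45 below), against 19.5% of all genes.

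The sizes were small and measured with fair precision. The median change of the 36 members was 0.01, against -0.00092 over all genes, and their median size regardless of sign was 0.0711 against 0.106. Changes were positive for 21 members and negative for 15, but for 15 positive after quantile normalization and for 25 after subtraction of array medians, so the set had no settled direction. The 95% interval of the change lay within ±0.5 log2 units for 35 of 36 members (97.2%, against 85.8% of all genes) and within ±1 for all 36. The exception at ±0.5 was Cdc45. The typical SD within a genotype was 0.129 for a member, against 0.108 over all genes. The number of arrays, 4 a group, limits the precision.

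**Figure D2:**
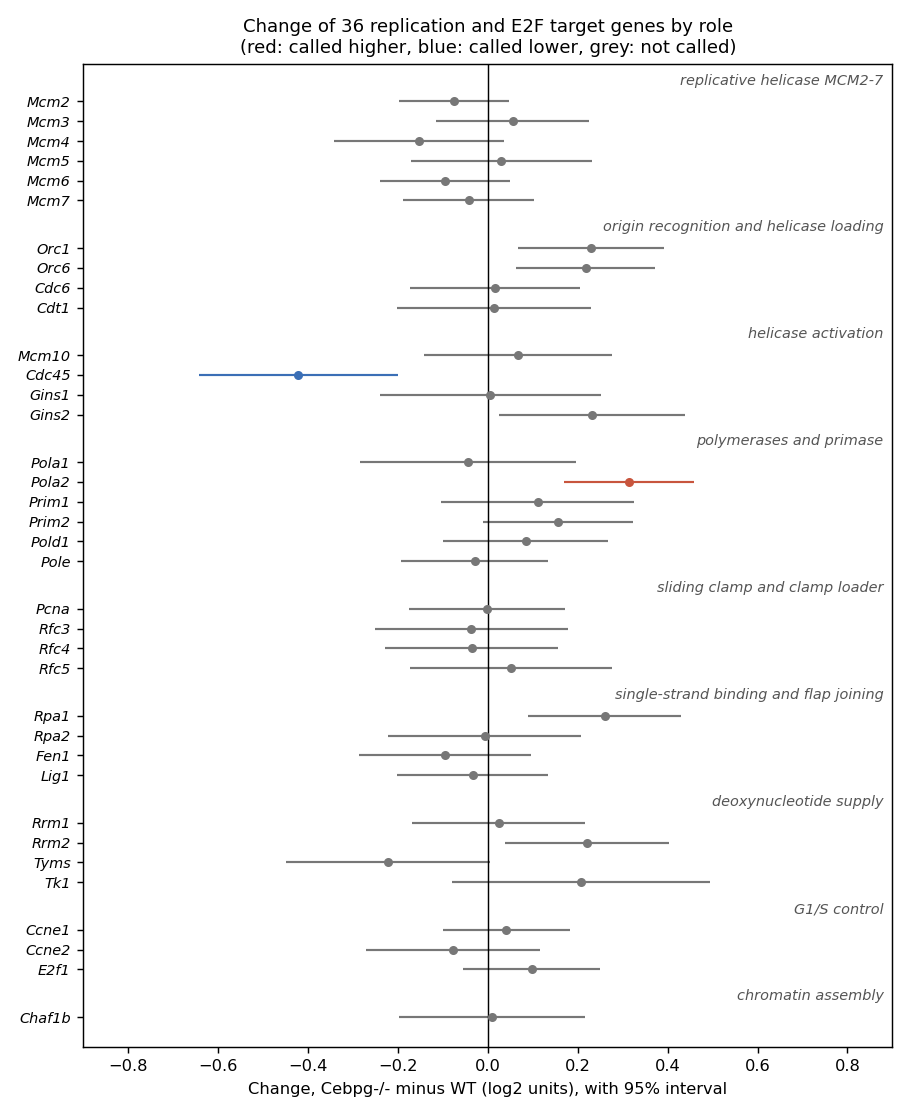
Change of each of the 36 measured genes (dots; Cebpg-/- minus WT, log2 units) with its 95% interval from the fit (lines), grouped by role. Pola2 (red) and Cdc45 (blue) passed the test; the intervals of most of the others (grey) span 0, and all but that of Cdc45 lie within ±0.5.

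Among 4 origin and helicase-loading genes none was called, 2 passed an unadjusted p of 0.05, and the largest differences were in 2 subunits of the origin recognition complex. Orc1, which encodes the large ATPase subunit, read 4.45, 4.55, 4.37 and 4.37 in WT and 4.57, 4.80, 4.58 and 4.71 in Cebpg-/-. All 4 Cebpg-/- values stood above all 4 WT values, though the gap between the nearest was small, and the change of 0.23 (95% interval 0.07 to 0.39) had an adjusted p of 0.0671. A further Orc1 probe set, also above the median of all values, went the other way (-0.18, not called), and with both averaged the change was 0.02. Orc6, the smallest subunit, read 7.24, 7.35, 7.28 and 7.19 against 7.34, 7.61, 7.48 and 7.49; here the highest WT and lowest Cebpg-/- values overlapped, and the change was 0.22 (0.06 to 0.37; adjusted p 0.0677). Both passed with array medians subtracted (0.0347 and 0.0320) and missed the threshold under quantile normalization (0.268 and 0.145). The loading factors Cdc6 and Cdt1 were 0.02 and 0.01 from WT, with intervals of -0.17 to 0.21 and -0.20 to 0.23, and under quantile normalization only 2 of the 4 genes of this group had a positive change.

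By their brightest probe sets, none of the 6 subunits of the replicative helicase was called or passed an unadjusted p of 0.05. Their median change was -0.06 under the deposited scaling, with 2 positive and 4 negative under each of the 3 scalings. Mcm2 stood at 7.56 ± 0.04 in WT and 7.48 ± 0.06 in Cebpg-/- (SD, n = 4 each; adjusted p 0.397). Mcm4 showed the greatest distance of the 6: it read 8.83, 8.85, 8.56 and 8.70 in WT and 8.42, 8.68, 8.68 and 8.54 in Cebpg-/-, a change of -0.15 (-0.34 to 0.04; adjusted p 0.264) with overlapping groups. Mcm6 read from 8.92 to 9.06 in WT against 8.76, 8.96, 8.95 and 8.95 (-0.10; adjusted p 0.366), its lowest value being Cebpg-/- replicate 1. Mcm3, Mcm5 and Mcm7 differed by 0.06, 0.03 and -0.04, each less than the range of their own WT samples. The signs of Mcm2 and Mcm4 depended on the probe set: their further ones differed by 0.07 and 0.02. The next brightest of Mcm6 differed by -0.20 (limma unadjusted p 0.0499, not called). Further probe sets of Mcm3, Mcm5 and Mcm7 kept the sign of the brightest.

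Helicase activation held the called decrease. Cdc45, which joins MCM2-7 and GINS in the active helicase, read 5.49, 5.56, 5.55 and 5.44 in WT and 4.88, 5.35, 4.94 and 5.18 in Cebpg-/-. Every Cebpg-/- value lay below every WT value, and the Cebpg-/- samples were far more spread. Cdc45 fell by 0.42 log2 units, or 1.34-fold (-0.64 to -0.20; adjusted p 0.0223). This call depended on single samples. Leaving out replicate 1 or 3 of WT gave limma adjusted p-values of 0.0583 and 0.0607. Leaving out replicate 1 or 3 of Cebpg-/- gave 0.0622 and 0.0672. In these fits 6.61% to 8.09% of all genes were called, against 12.6% with all 8 samples. The lowest values of Cdc45 were in Cebpg-/- replicates 1 and 3, the samples with the highest leukocyte means (7.60 and 6.95). Its highest Cebpg-/- value was in replicate 2, with the lowest leukocyte mean of its genotype (5.05). In WT the lowest leukocyte mean was in replicate 1 (3.73), whose Cdc45 value of 5.49 lay between those of the other WT samples. What part cell composition had in the change of Cdc45 was not tested. With the leukocyte mean as a covariate the change was -0.27 (adjusted p 0.273), a fit under which 1.96% of all genes were called. A second, dim probe set of Cdc45 differed by -0.10 and was not called.

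The other activation genes were not called. Gins2, a GINS subunit, read 6.68, 6.83, 6.61 and 6.51 in WT and 6.86, 7.07, 6.92 and 6.70 in Cebpg-/-, a change of 0.23 (0.03 to 0.44; adjusted p 0.132), and its other probe set differed by 0.21. Both genotypes' ranges overlapped between 6.70 and 6.83. Its partner Gins1 was 0.01 from WT (-0.24 to 0.25), and Mcm10, which helps the helicase to open origins, was 0.07 from WT (-0.14 to 0.28).

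Polymerase α and primase held the called increase. Pola2, the accessory subunit that tethers the polymerase, read 5.30, 5.25, 5.28 and 5.31 in WT and 5.47, 5.73, 5.61 and 5.58 in Cebpg-/-. The groups did not overlap and the WT values were tightly packed. Pola2 rose by 0.31 log2 units, or 1.24-fold (0.17 to 0.46; adjusted p 0.0132). It remained past the threshold without any 1 sample (adjusted p 0.0136 to 0.0404), under quantile normalization (0.0489) and with the leukocyte covariate (0.0348). With the mean of its 3 probe sets it was not called (change 0.02, adjusted p 0.809): the other 2 had means of 1.80 and 1.79, under the median of all values, 2.73, and differed by -0.13 and -0.12. The 3 genes that share its complex were not called: the catalytic subunit Pola1 differed by -0.04, the primase subunits Prim1 and Prim2 by 0.11 and 0.16 (adjusted p of at least 0.203). The replicative polymerase subunits Pold1 and Pole differed by 0.08 and -0.03.

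The clamp and its loader showed no called gene, and 0 of 4 passed an unadjusted p of 0.05. Pcna, the sliding clamp and a common proliferation marker, read 10.17, 10.40, 10.16 and 10.05 in WT and 10.11, 10.25, 10.21 and 10.20 in Cebpg-/-. All Cebpg-/- values lay inside the WT range, and the interval of the change ran from -0.17 to 0.17 (adjusted p 0.994). The clamp loader subunits Rfc3, Rfc4 and Rfc5 differed by -0.04, -0.04 and 0.05, each less than the SD of its own WT samples.

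Single-strand binding separated into 1 subunit near the threshold and 1 near 0. Rpa1, the large subunit of replication protein A, read 9.21, 9.43, 9.31 and 9.11 in WT and 9.43, 9.55, 9.60 and 9.51 in Cebpg-/-. The groups touched without overlapping at 9.43, and the change was 0.26 (0.09 to 0.43; adjusted p 0.0537). It was called under 9 of 20 alternatives, the looser threshold of 0.1 among them. Examples are array medians subtracted (limma adjusted p 0.0233) and WT replicate 2 left out (0.0258). It missed the threshold under quantile normalization (0.0737), and its other probe set differed by 0.27. Rpa2, the middle subunit, differed by -0.01 (-0.22 to 0.21), and the difference between the 2 subunits' changes was not tested. The flap nuclease Fen1 and the ligase Lig1, which finish lagging-strand fragments, differed by -0.09 and -0.03 (adjusted p 0.508 and 0.810).

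In deoxynucleotide supply no gene was called, and 1 of 4, Rrm2, passed an unadjusted p of 0.05. Rrm2, the S phase subunit of ribonucleotide reductase, read 10.04, 10.02, 9.89 and 9.76 in WT and 10.00, 10.27, 10.19 and 10.12 in Cebpg-/-, a change of 0.22 (0.04 to 0.40; adjusted p 0.110). 3 of its 4 Cebpg-/- values exceeded all WT values, and its other probe sets differed by 0.21 and 0.26. Its partner Rrm1 differed by 0.02. Thymidine kinase, Tk1, spread widely in Cebpg-/- (6.90, 7.41, 7.40 and 6.97, against 6.98, 7.16, 6.90 and 6.81 in WT), and the change of 0.21 had an interval of -0.08 to 0.49. Thymidylate synthase, Tyms, differed by -0.22 (adjusted p 0.183), but all 4 of its probe sets lay under the median of all values, at the dim end of the arrays.

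By their brightest probe sets, none of the 3 G1/S genes or the chromatin assembly subunit was called or passed an unadjusted p of 0.05. Ccne1 (cyclin E1) read 7.46, 7.49, 7.52 and 7.37 against 7.53, 7.57, 7.38 and 7.52, and Ccne2 (cyclin E2) differed by -0.08 (adjusted p 0.710 and 0.602). E2f1, itself an E2F target, read 5.48, 5.65, 5.74 and 5.57 in WT and 5.77, 5.68, 5.64 and 5.74 in Cebpg-/- (0.10, -0.06 to 0.25; adjusted p 0.383). A further E2f1 probe set, with a mean of 5.40, differed by 0.18 (0.04 to 0.31, limma unadjusted p 0.0146, not called), and the dimmest by -0.05. Chaf1b, a subunit of the factor that places histones on new DNA, differed by 0.01 (-0.20 to 0.22). Over all members, 28 had further probe sets: of those 44 probe sets, 28 had the sign of the gene's brightest one.

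**Figure D3:**
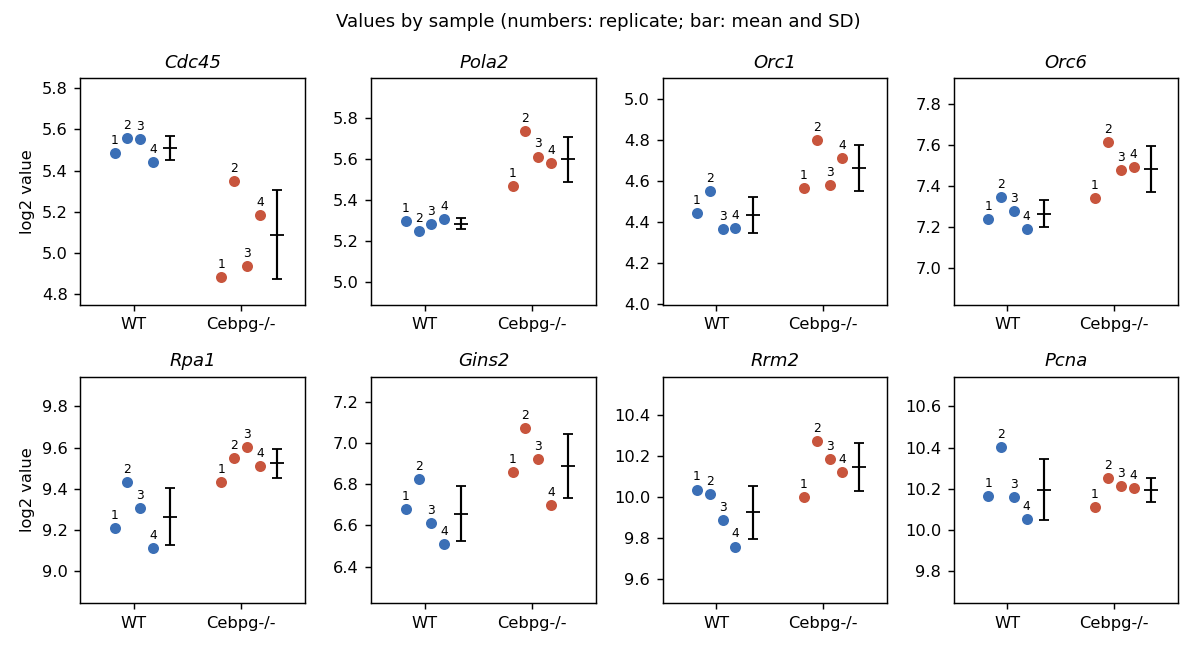
Deposited log2 values of 8 genes of the set in each WT (blue) and Cebpg-/- (red) sample, numbered by replicate, with mean and SD (black); each panel spans the same width in log2 units but starts at its own level. Cdc45 and Pola2 do not overlap between genotypes, whereas the Cebpg-/- values of Pcna lie inside its WT range.

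The set varied as a block from culture to culture, within both genotypes. The mean of the 36 members was 6.98, 7.12, 6.99 and 6.89 in WT replicates 1 to 4 and 6.90, 7.15, 7.04 and 7.01 in Cebpg-/- replicates 1 to 4, or 6.99 ± 0.09 and 7.02 ± 0.11 (SD, n = 4 each). Members moved together within each genotype: 34 of 36 were above their genotype mean in WT replicate 2 and 34 in Cebpg-/- replicate 2, while 32 were below it in WT replicate 4 and 33 in Cebpg-/- replicate 1. In Cebpg-/- replicate 2, 29 members had their highest value of the 4, and in Cebpg-/- replicate 1, 32 had their lowest. The median deviation from the genotype mean was 0.13 in both replicates 2, -0.10 in WT replicate 4 and -0.14 in Cebpg-/- replicate 1, whereas over all genes it stayed between -0.028 and 0.016. The highest and lowest cultures of each genotype were the same under quantile normalization, where the deviations ran from -0.15 to 0.14.

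Set against this spread, the genotype difference of a typical member was small. The median range among 4 samples of 1 genotype was 0.280 in WT and 0.274 in Cebpg-/-, against a median size of change of 0.0711. For 30 of 36 members the change was smaller than the range within each genotype, and for 1, Pola2, it exceeded both ranges. Deviations from the genotype mean, taken over the 8 samples as a description that shares their depth and scaling, correlated among members with a median r of 0.684, and 93.0% of the 630 pairs were above 0. Mcm3, Mcm5 and Orc6 followed the mean of the other members most closely (r of 0.98, 0.97 and 0.96). Cdc45 and Pola2, the called genes, followed it less closely, at 0.71 and 0.56. Tyms and E2f1 did not follow it (-0.11 and -0.08), and Ccne1 and Mcm6 followed it weakly (0.36 and 0.42); the median over all genes was 0.0872. Members with and without an E2F match in the window had median r of 0.876 (18 genes) and 0.770 (12 genes), and median changes of 0.01 and 0.06.

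**Figure D4:**
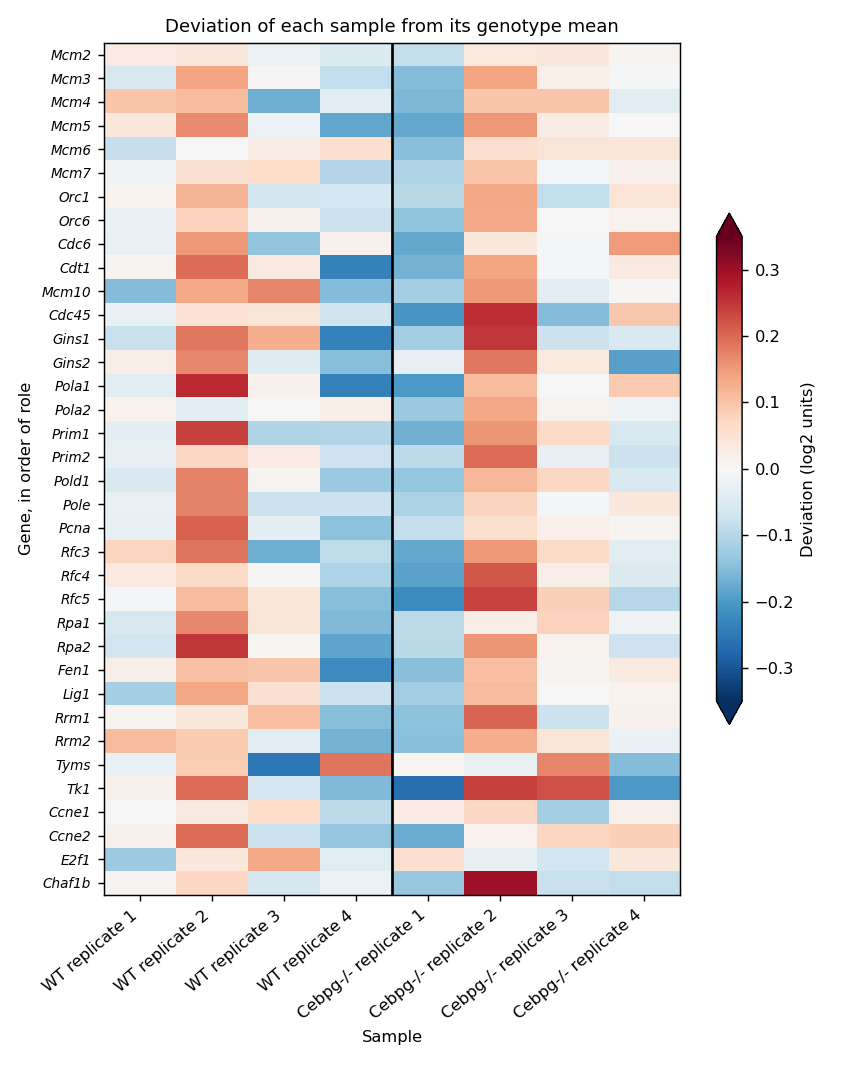
Deviation of each gene (rows, in order of role) from the mean of its genotype in each of the 8 samples (columns; colour scale in log2 units, red above and blue below). Replicate 2 of both genotypes is red in nearly every row, WT replicate 4 and Cebpg-/- replicate 1 are blue in nearly every row, and Tyms and E2f1 do not follow the others.

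The same cultures were high and low in other cell cycle genes, which do not belong to the set. The mean of 19 mitosis genes was 7.44, 7.52, 7.45 and 7.37 in WT and 7.15, 7.57, 7.38 and 7.30 in Cebpg-/-, highest in replicate 2 and, in Cebpg-/-, lowest in replicate 1. All 19 were below their genotype mean in Cebpg-/- replicate 1, the sample with the highest leukocyte mean (7.60), and all 19 above it in Cebpg-/- replicate 2, the sample with the lowest of its genotype (5.05). In WT the lowest leukocyte mean was in replicate 1 (3.73), whose replication and mitosis means were intermediate. What part cell composition had in these differences between cultures was not tested. Only 2 of 19 mitosis genes had a positive change, with a median of -0.08, but 9 of 19 had one with array medians subtracted. The 1 called lower was Kif11, a spindle motor (-0.30, adjusted p 0.0419). It was not called without replicates 1, 2 or 4 of WT or 1, 3 or 4 of Cebpg-/- (0.0748 to 0.109). It also missed with array medians subtracted (0.0655) and with the leukocyte covariate (-0.23, 0.346), under which 1.96% of all genes were called. The members' mean minus the mitosis mean was -0.46, -0.40, -0.46 and -0.48 in WT and -0.26, -0.42, -0.35 and -0.29 in Cebpg-/-: 3 of the 4 Cebpg-/- values stood above all of WT, and that of replicate 2 lay inside the WT range.

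**Figure D5:**
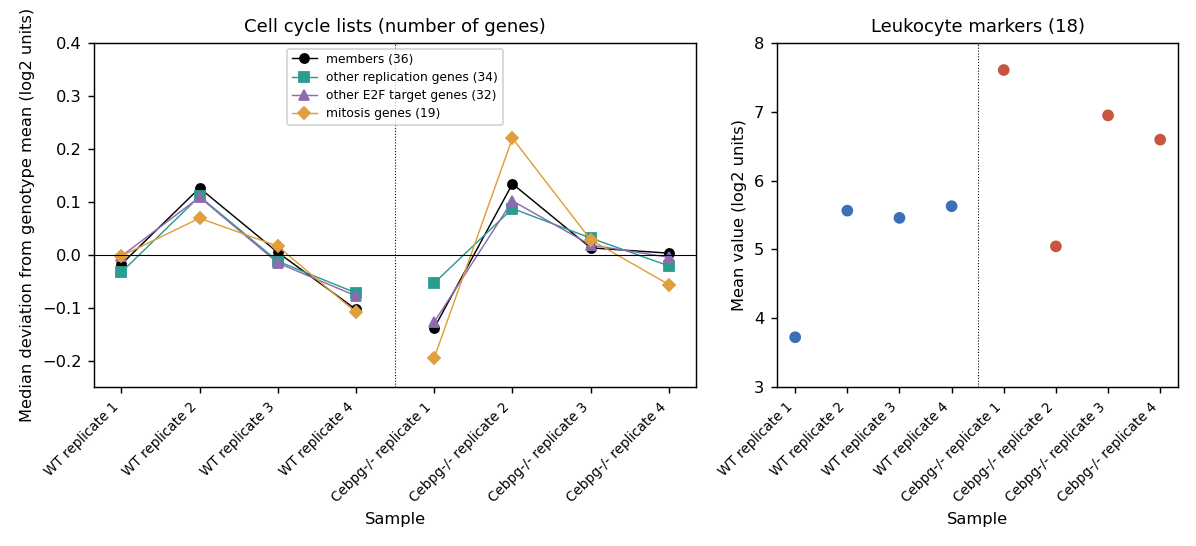
Left, median deviation from the genotype mean (log2 units) of the set, other replication genes, other E2F targets and mitosis genes in each sample; lines only join points of 1 list. Right, mean of 18 leukocyte markers (log2 units; WT blue, Cebpg-/- red). All 4 lists peak in replicate 2 of each genotype, and in Cebpg-/- they are lowest in replicate 1, where leukocyte markers are highest.

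Of 34 other replication genes, 4 were called higher and 1 lower, where 12.6% of all genes were called in either direction. Their median change was 0.00, positive for 17 and negative for 17. The 4 were the origin subunits Orc5 (0.34, adjusted p 0.0140), Orc2 (0.28, 0.0201) and Orc3 (0.20, 0.0314) and Rnaseh2a, the catalytic subunit of ribonuclease H2 (0.22, 0.0261). Pole4, a small subunit of polymerase ε, fell by 0.24 (0.0404). Read with Orc1 and Orc6, and noticed after the values were seen, the brightest probe sets of all 6 origin subunits had a positive change, from 0.06 in Orc4 (adjusted p 0.597) to 0.34 in Orc5, and did so under each of the 3 scalings. This did not extend to every probe set: the further one of Orc1 was -0.18. Some others were positive but near 0, such as the dimmest of Orc3 at 0.0029. Orc2 had a probe set nearly as bright (mean 6.07 against 6.20) that differed by 0.09 (adjusted p over all probe sets 0.514), and another by 0.11 (0.781). Orc5 read 5.36, 5.53, 5.42 and 5.51 in WT and 5.75, 5.67, 5.92 and 5.82 in Cebpg-/-; it remained called without any 1 sample. With the leukocyte covariate none of the 5 genes was called, in a fit under which 1.96% of all genes were called. The changes there were 0.25 for Orc5 (adjusted p 0.189), 0.24 for Orc2 (0.205) and 0.21 for Orc3 (0.183). Rnaseh2a changed by 0.24 (0.160) and Pole4 by -0.14 (0.401). Orc2 was not called when replicate 1 of WT (0.0610) or replicates 1 or 3 of Cebpg-/- (0.0528 and 0.0626) were left out, nor Orc3 under quantile normalization (0.102). The calls of Orc3 and Pole4 were the least firm: Orc3 was called without WT replicate 4 but not without any other 1 sample (0.0545 to 0.0876), and Pole4 without WT replicate 4 or Cebpg-/- replicate 2 but not otherwise (0.0809 to 0.114). Rnaseh2a was not called without replicates 1 or 3 of WT or replicates 1, 3 or 4 of Cebpg-/- (0.0501 to 0.0728), nor under quantile normalization (0.0974), and Pole4 was not called with array medians subtracted (0.0588).

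Few other E2F targets were called. Of 32 measured of 35 other E2F targets, 1 was called lower, and the median change was -0.04. Over all genes 12.6% were called in either direction. The called gene was Ung, a uracil-DNA glycosylase (-0.26, adjusted p 0.0164). Its adjusted p was 0.0533 without Cebpg-/- replicate 1, and with the leukocyte covariate its change was -0.22 (0.194). Of 16 E2F and RB pathway factors, 3 were called higher and 1 lower. Rb1, the retinoblastoma gene, read 5.54, 5.49, 5.53 and 5.57 in WT and 6.15, 5.89, 6.13 and 5.93 in Cebpg-/-, a rise of 0.50 (adjusted p 0.00291). Cdkn1a (p21), an inhibitor of cyclin-dependent kinases, rose by 0.56 (0.00364) and Ccnd1 (cyclin D1), which pairs with the kinases that phosphorylate RB, by 0.62 (0.00972). Cdkn1b (p27), a second inhibitor, fell by 0.57 (0.00435). None of these 4 genes overlapped between genotypes, where 19.5% of all genes did not. They are named because they were called, so the lack of overlap adds no support. All 4 remained called without any 1 sample. With the leukocyte covariate, under which 1.96% of all genes were called, their adjusted p ran from 0.0507 for Rb1 to 0.140 for Ccnd1. The changes in that fit were 0.41 for Rb1, 0.47 for Cdkn1a, 0.47 for Ccnd1 and -0.52 for Cdkn1b. The other 12 factors, among them E2f3, E2f4, Tfdp1, Cdk4 and Rbl2, were not called.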

How the data were processed

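RNA from 4 WT and 4 Cebpg-/- MEF samples was hybridised to Affymetrix arrays. The deposited values are log2 signals, and the submitters' processing notes name RMA; version and settings: not given in the sources used here. Of 45101 rows, 64 control probe sets were left out. Each of 18193 genes was represented by its brightest probe set among the 34945 that name 1 gene, with symbols updated through Entrez numbers. limma 3.58.1 (lmFit and eBayes, R 4.3.3) compared the genotypes over 45037 probe sets, without covariates, and p-values were adjusted over genes by the Benjamini-Hochberg method (threshold 0.05); the fit was tested on simulated data. Signal over background is not given in the deposited values, and array medians were 2.70 to 2.76. Alternatives covered scaling, a filter on dim probe sets, the choice of probe set, the variance model, array weights, a replicate block, covariates and left-out samples. The members and all gene lists were chosen with earlier results of these data known. Named are the members and every called gene of the other replication, E2F, RB and mitosis lists and of the fibroblast and leukocyte markers. Orc4, Tubb3 and the factors without a call were added after their values were seen. The RefSeq tables were those of GRCm38.p6.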

Additional observations from a re-analysis of the deposited data

Results flagged for a closer look

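In all, 82 groups of 4 values were examined: each member and some list means, in each genotype. The list means were those of the set, other replication genes, other E2F targets, mitosis genes and leukocyte markers. Of the 82 groups, 3 held a sample far from the other 3, where chance gives about 1 in 20 such groups. Mcm6 in Cebpg-/- replicate 1 was 8.76, against 8.95 to 8.96 in the other Cebpg-/- samples. Chaf1b in Cebpg-/- replicate 2 was 6.23, against 5.80 to 5.86. Among the Cebpg-/- samples, these are the ones in which the mean of the set was lowest and highest. The leukocyte mean in WT replicate 1 was 3.73, against 5.46 to 5.63 in the other WT samples.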

How the results depend on the processing

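With the deposited values 1 member was called higher, 1 lower and 4 did not overlap. Subtraction of array medians gave 4 higher (15.2% of all genes called in either direction, against 12.6%) and 7 not overlapping. Quantile normalization gave 2 not overlapping. The share of all genes not overlapping was taken only for the deposited values of all 8 samples (19.5%). Counts not overlapping under other settings therefore have no background beside them, and no conclusion is drawn from them. The members called higher were 2 without dim probe sets (21.2% of all genes), 2 with the most variable probe set (13.9%; 2 not overlapping), 3 with an intensity trend (13.8%), 2 with array weights (16% of all genes) and 4 at a threshold of 0.1 (19.9%). With the leukocyte mean as covariate 0 were called lower by limma, though 8 members passed an unadjusted p of 0.05 in either direction, as did 16% of all genes. Without single samples 1 to 2 were called higher and 0 to 1 lower, with 6.61% to 13.8% of all genes called in either direction. The fits with 0 lower were those without replicate 1 or 3 of either genotype, with 6.61% to 8.09% of all genes called. Without single samples the number not overlapping was 4 to 7, but leaving a sample out can only keep or raise it, so no conclusion is drawn. Added after seeing the data, the mitosis mean as covariate gave 7 higher, where 1113 of 18193 genes were called higher (9.07% called in either direction). The members' mean deviation followed that of the mitosis genes (r of 0.919). This covariate thus takes out spread that the members share with those genes, which can add calls among them, so no conclusion is drawn. Leaving out WT replicate 1 and Cebpg-/- replicate 1 together gave 0 lower, with 2.91% of all genes called in either direction. It gave 8 not overlapping, a count that again could not fall. The median change stayed between -0.03 and 0.10. E2F matches fell from 60.0% to 22.9% of windows with 100 bases. Of the 36 members 20 changed sign under at least 1 of 20 alternatives, none of them called both ways. Among calls of all genes 68.4% were higher, 56.7% under quantile normalization and 78.9% with medians subtracted.

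Deviations over all genes gave little sign of pairing by replicate number. Their correlations between same-numbered samples were -0.359, 0.147, 0.0173 and 0.0453 for replicates 1 to 4, and 1 of 8 samples correlated best with its own number. The set and the other cell cycle lists, however, were highest in the same-numbered replicate of both genotypes. The labels do not say whether same-numbered samples were prepared together, so these correlations cannot decide whether the samples are paired. The replicate block gave 1 member higher and 1 lower, with 8.07% of all genes called. The cause of these changes was not tested.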
